A study of Danio rerio with 6 samples.

Results

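Actins are the filament-forming proteins of muscle and of the cell skeleton, and 9 gene rows of the deposited table of 31624 carry 1 of 8 actin symbols: ACTC1 (1 of many), actc1a, actc1b, acta1a, acta1b, acta2, actb1 and actb2. Every row with such a symbol was taken, and ACTC1 (1 of many) stands on 2 rows. The set was chosen by name, but it was selected on earlier results of this same comparison, in which 1 of the ACTC1 rows stood out for its difference between the groups. The levels and log2 changes of these 9 rows are therefore given as a description. Where a row is said to be called, this states on which side of the threshold it fell in the fit of the whole table, and it is no independent evidence of a difference.

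RNA was sequenced from whole zebrafish embryos of 72 hours post fertilization, from a wild type group and an rhpn2 mutant group of 3 samples each, lettered a to c. The labels call the mutation a knockout of rhpn2 and give no allele, no way in which it was made, no parents and no number of embryos per sample. Both groups were raised in E3 embryo medium and neither carried a named transgene.

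Actin monomers polymerise into filaments that carry myosin motors in the sarcomere and that give all cells their cortex and their shape. Vertebrates keep separate genes for the muscle types (skeletal, cardiac and smooth muscle alpha actin) and for the cytoplasmic types, and the proteins differ at few residues. In zebrafish several of these genes exist in more than 1 copy, and the striated muscle copies are expressed in embryonic muscle of the trunk, the heart or both.

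Total counts were 14918069 to 17056923 per sample. The targeted gene, rhpn2, had 685, 755 and 743 counts in the wild type samples (in the order a, b, c, as for every triplet of values here) and 195, 194 and 188 in the mutants. It was lower in all 3 mutant samples, with a log2 change of -2.12 ± 0.10 (SE, edgeR adjusted p 5.04e-08). Where the reads that remained fall in the gene was not analysed. Over the whole table, edgeR's quasi-likelihood test called 33.2% of 20032 tested genes at an adjusted p below 0.05, 16.5% higher and 16.7% lower in the mutants. The FPKM ranges of the groups did not overlap for 49% of the tested genes.

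The 9 rows spanned more than 4 orders of magnitude in wild type embryos. The highest was actc1b on chromosome 17, an alpha actin of cardiac type by its symbol, with 16252, 14973 and 14138 FPKM in wild type. It was the most abundant gene of the table per exonic length in both groups. Its counts were 276994 to 317261 in wild type and 283362 to 295450 in mutants.

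The next 3 genes lay 8.40-fold or more below it. They were the skeletal alpha actin gene acta1b at 1800 ± 109 FPKM (SD, n = 3, as for all such values here) and the cytoplasmic beta actin genes actb2 at 1684 ± 41.5 and actb1 at 1652 ± 78.6. The sample ranges of acta1b and actb2 overlapped in wild type, as did those of actb2 and actb1, so the order among them is not larger than the spread. actc1a, another gene of cardiac type, had 335 ± 56.8 FPKM and the skeletal gene acta1a 241 ± 24.2, with no overlap between these neighbours. The smooth muscle alpha actin gene acta2 had 43.4 ± 6.87 FPKM, and its range overlapped that of the ACTC1 row on chromosome 20 at 34.0 ± 3.68. The ACTC1 row on chromosome 19 was lowest, at 0.587 ± 0.166.

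**Figure D1:**
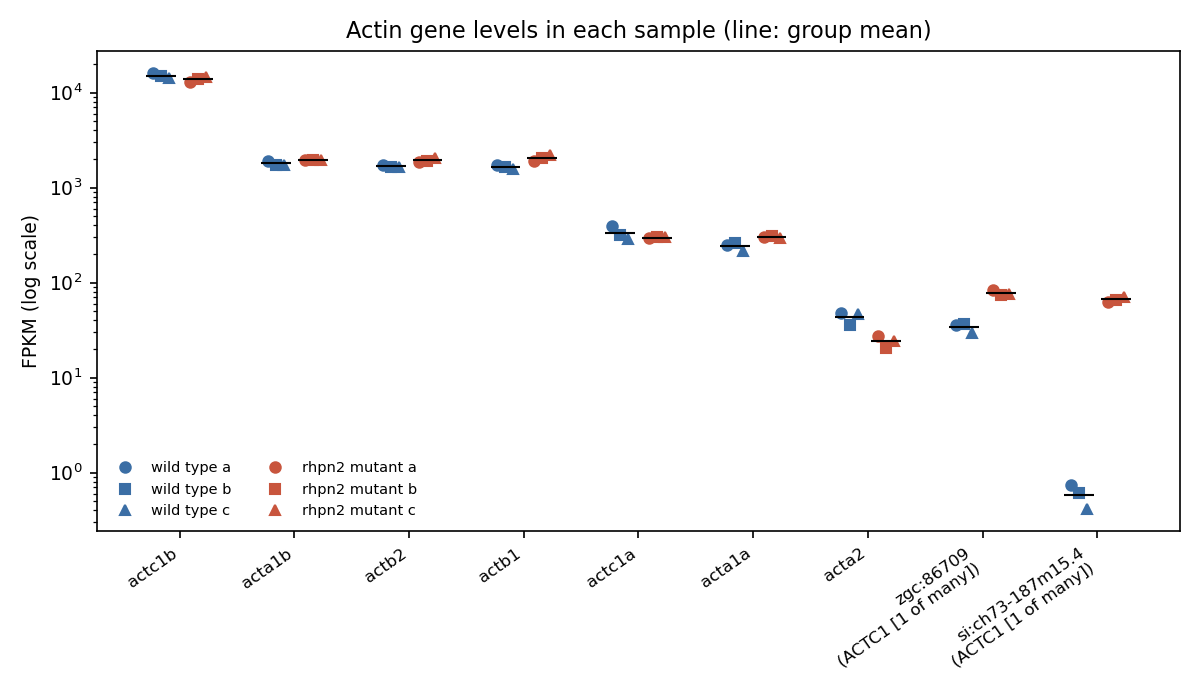
FPKM of the 9 actin rows in each of the 6 samples on a log axis, wild type in blue and rhpn2 mutants in red, with letters a to c as circle, square and triangle and the group mean as a line. The ACTC1 row on chromosome 19 (si:ch73-187m15.4) sits at 0.41 to 0.74 FPKM in wild type and at 62.7 to 71.1 in mutants, while actc1b stays near the top in both groups.

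The ACTC1 rows share 1 symbol and are told apart here by the other names the files give them. The row on chromosome 19, si:ch73-187m15.4 (ENSDARG00000076126, positions 47988581 to 47994969, minus strand), is listed as actc1c in the gene name table. The row on chromosome 20, zgc:86709 (ENSDARG00000057911, positions 9983546 to 9993078, minus strand), is listed there as ACTC1 and in RefSeq's gene table of assembly GRCz12tu as actc2. The name si:ch73-187m15.4 had no single match among the RefSeq genes. The positions come from the deposited table, and its genome build is not stated in the sources used here.

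si:ch73-187m15.4 had 0.74, 0.61 and 0.41 FPKM in wild type and 62.7, 65.5 and 71.1 FPKM in mutants. These values rest on 16, 13 and 9 counts against 1523, 1528 and 1521. Every mutant sample stood above every wild type sample, and the mutants differed among themselves far less than the groups did. The log2 change was 6.70 ± 0.17 (SE), a 104-fold higher level. From rank 19051 of the table in wild type by mean FPKM, the row came to rank 850 in mutants.

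zgc:86709 had 35.7, 36.6 and 29.8 FPKM in wild type and 83.3, 73.7 and 75.6 in mutants. The groups did not overlap here either, but the row was already well expressed in wild type. Its log2 change was 1.08 ± 0.11, or 2.11-fold higher. The pair of ACTC1 rows together went from 34.6 ± 3.82 to 144 ± 4.09 FPKM, and in mutants zgc:86709 and si:ch73-187m15.4 lay next to each other in the order of levels with ranges of 73.7 to 83.3 and 62.7 to 71.1.

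acta2, which codes for the actin of smooth muscle and of some mural cells, was the only one of the 9 rows called lower. It had 48.1, 35.5 and 46.6 FPKM in wild type and 27.4, 20.6 and 24.4 in mutants. All mutant values lay below all wild type values. The log2 change was -0.96 ± 0.13, a 1.94-fold lower level. In whole embryos, fewer cells of a type and less RNA per cell cannot be told apart.

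The other 6 rows were not called. actc1b had 12947, 14058 and 14699 FPKM in mutants, which overlapped the wild type range, and its log2 change was -0.23 ± 0.14. actc1a had 399, 316 and 290 FPKM in wild type and 292, 299 and 301 in mutants. The wild type samples of actc1a spread more widely than the mutants, whose values all lay inside the wild type range. Its change was -0.29 ± 0.13, and this gene alone of the 6 was called in a fit without wild type c, at -0.41.

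acta1a, a skeletal alpha actin gene, had 248, 260 and 214 FPKM in wild type and 302, 311 and 293 in mutants. acta1b had 1925, 1724 and 1750 FPKM in wild type and 1950, 1971 and 1933 in mutants. Neither gene's ranges overlapped, but the log2 changes after TMM scaling (edgeR's correction of library totals for composition) were small, at 0.22 ± 0.11 for acta1a and 0.01 ± 0.11 for acta1b. FPKM is scaled to the library total alone, and on that scale mutants were slightly higher over most genes: the median log2 change of all tested genes was 0.006 with TMM and 0.11 with library totals.

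The cytoplasmic genes showed the same dependence on scaling. actb1 had 1726, 1660 and 1569 FPKM in wild type and 1900, 2056 and 2188 in mutants. actb2 had 1732, 1655 and 1666 FPKM in wild type and 1851, 1892 and 2061 in mutants. Both were higher in every mutant sample by FPKM, and the log2 changes with TMM scaling were 0.20 ± 0.12 for actb1 and 0.09 ± 0.12 for actb2, neither called. With library totals, actb1 (0.31) and acta1a (0.33) were called higher.

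Of the 9 rows, 2 were called higher and 1 lower, so 3 of 9 were called, against 33.2% of all tested genes. The ranges did not overlap for 7 of 9 rows, against 49% of all tested genes. Since the rows were selected on this comparison, nothing is read from these shares.

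**Figure D2:**
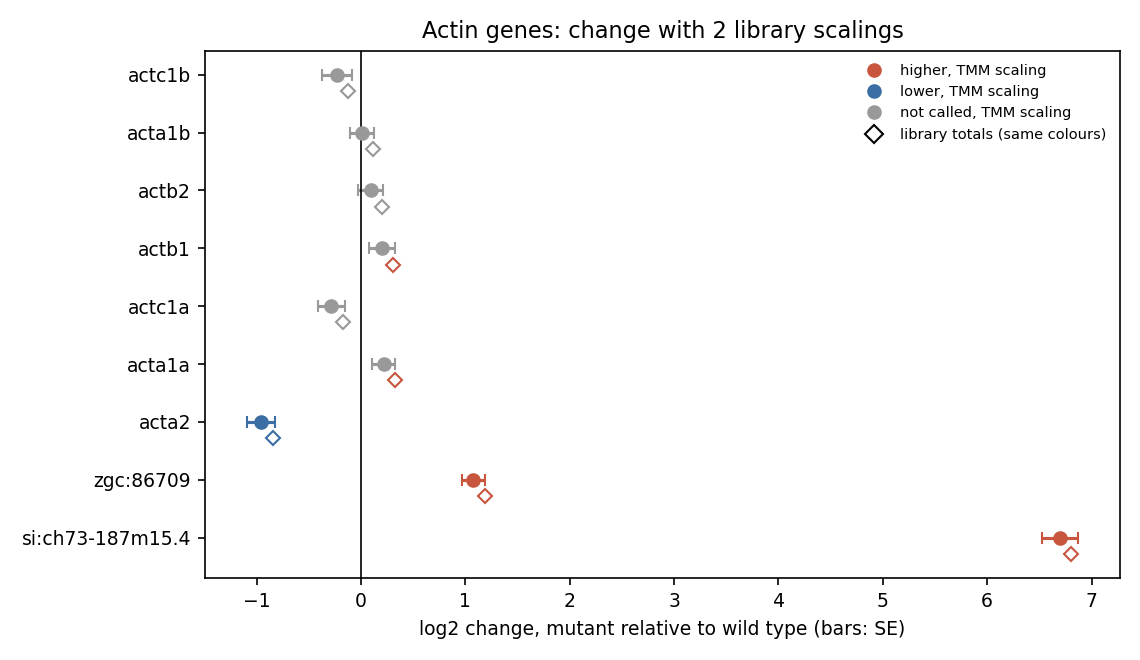
Log2 change of each actin row in rhpn2 mutants relative to wild type, as filled circles with SE after TMM scaling and as open diamonds with library totals. si:ch73-187m15.4 at 6.70 lies far from all others, zgc:86709 at 1.08 and acta2 at -0.96 follow, and the diamonds of all rows lie to the right of the circles, with actb1 and acta1a called higher with library totals.

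Summed over all 9 rows, actin transcripts made up 2.89% to 3.26% of all counts in both groups. The summed level was 20910 ± 1348 FPKM in wild type and 20603 ± 1122 in mutants, with overlapping ranges. The 7 muscle-type rows summed to 17574 ± 1236 FPKM in wild type and 16620 ± 880 in mutants, also with overlap. actc1b alone held 85.8% to 86.3% of that muscle-type sum in wild type and 82.7% to 84.5% in mutants. si:ch73-187m15.4 held at most 0.00391% in wild type and 0.39% to 0.409% in mutants.

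The cytoplasmic sum of actb1 and actb2 was 3336 ± 112 FPKM in wild type and 3983 ± 251 in mutants, without overlap. Its log2 ratio was 0.26 with library totals, as FPKM is made, and 0.15 when FPKM was rescaled with TMM. In mutants the order of levels was actc1b, then actb1, acta1b and actb2 with overlapping neighbours, then acta1a and actc1a with overlap, then zgc:86709, si:ch73-187m15.4 and acta2 without overlap. acta2 thus moved from above both ACTC1 rows by mean to below both.

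The genes around si:ch73-187m15.4 on chromosome 19 were repeated around actc1a on chromosome 20. Both loci held 6 genes in the same order and on the same strands, with the same symbols except for the actins. In order these were the formin gene fmn1, the BMP antagonist gene grem1a, the secretogranin gene scg5 and the actin. After the actin came the ribonucleotide reductase gene rrm2 and the small nucleolar RNA gene SNORD94. Measured from the start of the actin, rrm2 began at 15.3 kb in both loci, and SNORD94, which lies inside rrm2, began at 18.1 kb on chromosome 19 and 18.2 kb on chromosome 20. grem1a began at -26.9 kb on chromosome 19 and at -7.4 kb on chromosome 20. This repeat was noticed after the values were seen. Whether the loci are separate in the genome was not tested.

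For scg5 and rrm2, the copy on chromosome 19 was higher in the mutants and the copy on chromosome 20 lower. These chromosome 20 genes were picked after their values were seen. scg5 on chromosome 19 had 0, 2 and 3 counts in wild type and 33, 20 and 27 in mutants, a log2 change of 3.71 ± 0.56 (edgeR adjusted p 0.000327). Its fold change rests on these few wild type counts. scg5 on chromosome 20 had 138, 200 and 130 counts in wild type and 93, 78 and 57 in mutants, a change of -1.25 ± 0.20 (edgeR adjusted p 0.00059). The ranges of neither copy overlapped between the groups.

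rrm2, which makes deoxyribonucleotides for DNA synthesis, was the best covered of the repeated neighbours. Its chromosome 19 copy had 20.1, 12.8 and 10.8 FPKM in wild type and 36.3, 33.2 and 33.0 in mutants, and rose by 1.11 ± 0.19 on the log2 scale (edgeR adjusted p 0.000787). Its chromosome 20 copy had 27.5, 25.3 and 28.2 FPKM in wild type and 6.16, 9.82 and 8.65 in mutants, a change of -1.82 ± 0.15 (edgeR adjusted p 4.41e-06). All 3 mutant samples showed both directions.

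grem1a on chromosome 20 fell from 14, 12 and 17 counts to 1, 3 and 9, a log2 change of -1.88 ± 0.56 (edgeR adjusted p 0.0214). That call was lost without wild type c, mutant a or mutant b (adjusted p 0.0571, 0.0866 and 0.0843). fmn1 on chromosome 20 was not called at 0.54 ± 0.36 (edgeR adjusted p 0.265), and the chromosome 19 copies of fmn1 and grem1a, which overlap each other on opposite strands, had too few counts to be tested. Beyond the repeated genes, klf11a (-0.91, edgeR adjusted p 3.29e-05) and taf1b (-0.48, adjusted p 0.025) were also lower next to actc1a.

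**Figure D3:**
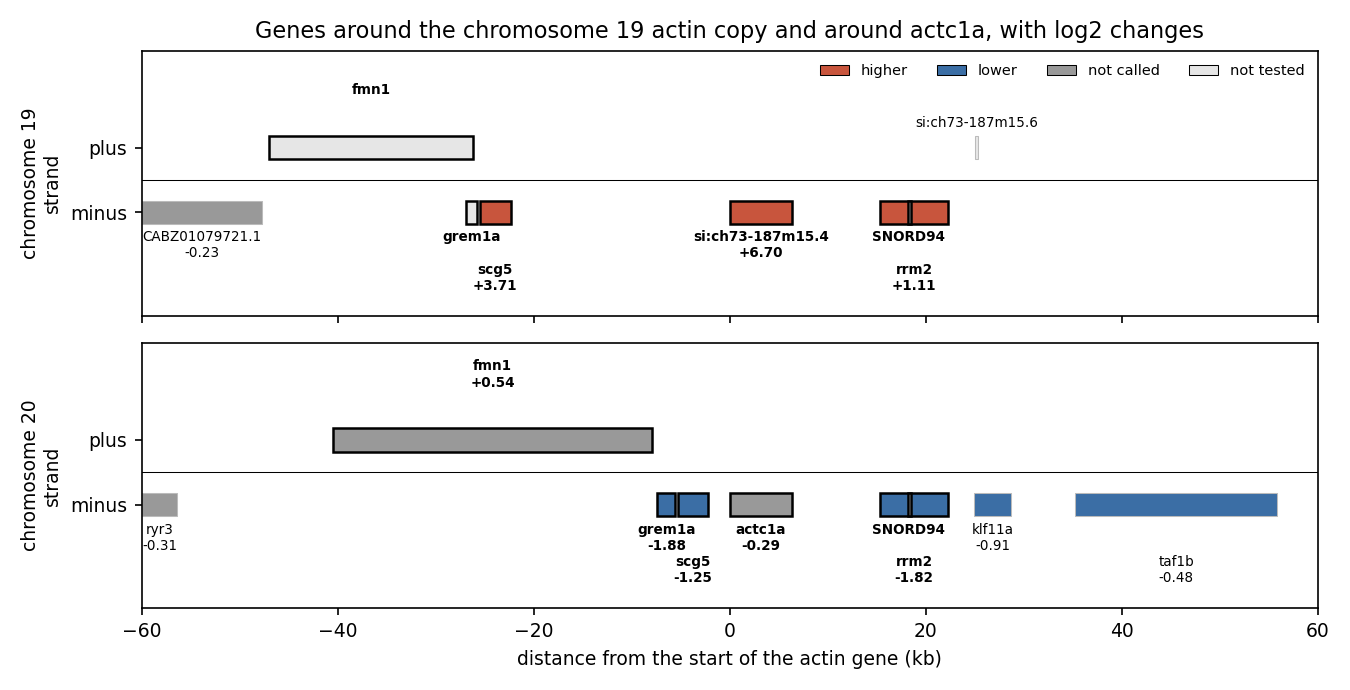
Genes within 60 kb of the start of si:ch73-187m15.4 on chromosome 19 and of actc1a on chromosome 20, by strand and by distance in kb, with red for called higher, blue for called lower, dark grey for not called and light grey for not tested; outlined genes with bold names occur in both loci, numbers are log2 changes, and the narrow box inside rrm2 is SNORD94, not tested. On chromosome 19 scg5, the actin and rrm2 are red (3.71, 6.70 and 1.11), and on chromosome 20 grem1a, scg5 and rrm2 are blue while actc1a is grey (-0.29).

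The same counts can be given as the share of each pair on chromosome 19. For the actins this share restates the row on which the set was selected, and it is no further evidence of a difference. For the actins, si:ch73-187m15.4 held 0.201%, 0.211% and 0.155% of the counts of the pair with actc1a in wild type. In the mutants it held 18.97%, 19.25% and 20.46%. The 95% Wilson intervals, which cover counting error only, reached at most 0.36% in wild type and began at 18.1% or above in mutants.

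For rrm2 the chromosome 19 share was 42.1%, 33.4% and 27.5% in wild type and 85.4%, 77.0% and 79.1% in mutants. For scg5 it was 0%, 0.99% and 2.26% in wild type, with a Wilson upper bound of 2.71% at the count of 0, and 26.2%, 20.4% and 32.1% in mutants. Neither pair overlapped between the groups. grem1a (41.7%, 20% and 15% against 94.4%, 72.7% and 25%) and fmn1 (16.7%, 30.8% and 40% against 41.7%, 36% and 29.2%) overlapped and rested on 11 to 25 counts per sample.

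**Figure D4:**
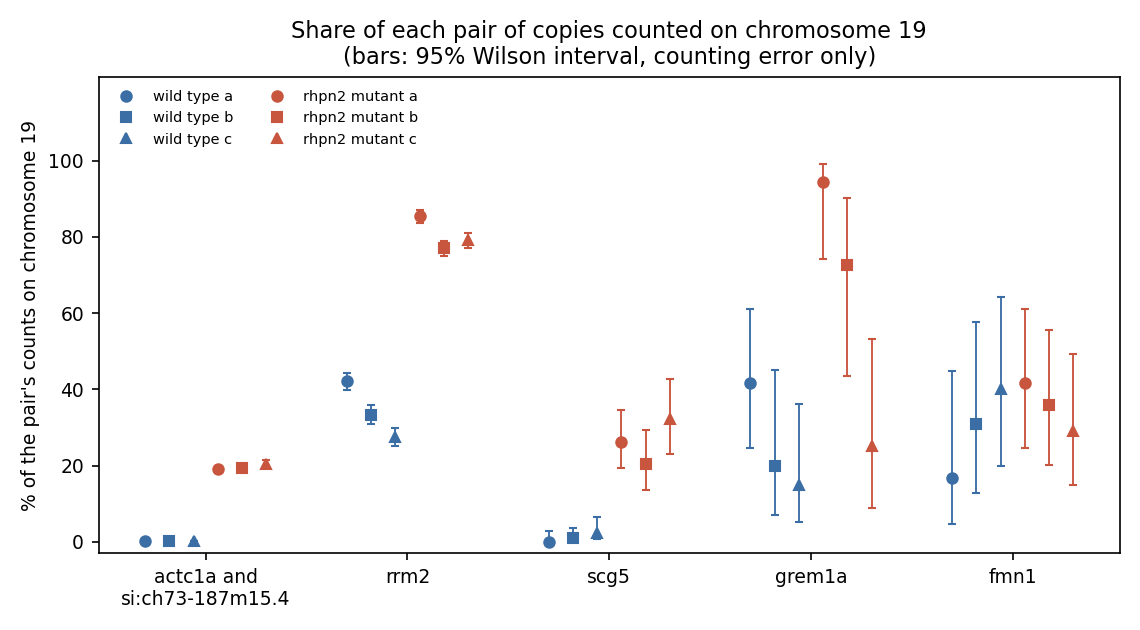
Percent of the counts of each pair of copies that were assigned to chromosome 19, in each sample, with 95% Wilson intervals for counting error; colours and symbols mark groups and letters as in the plot of levels. The actin pair moves from at most 0.211% to between 18.97% and 20.46%, rrm2 and scg5 also separate the groups, and grem1a and fmn1 have wide intervals that overlap.

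When the counts of each pair were summed and the whole table fitted again, a step added after the data were seen, 33.2% of 20029 rows were called. The summed actin pair had 7946, 6171 and 5798 counts in wild type and 8029, 7938 and 7435 in mutants, and its log2 change was 0.03 ± 0.13, not called. In FPKM, actc1a plus si:ch73-187m15.4 came to 335 ± 57.0 in wild type and 364 ± 9.04 in mutants, with overlap. The 104-fold difference of the chromosome 19 row could not appear in this sum. actc1a alone held 7930, 6158 and 5789 counts in wild type, and the chromosome 19 row held at most 1528 in mutants.

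The summed rrm2 pair was likewise not called (-0.09 ± 0.11, edgeR adjusted p 0.577). The summed scg5 pair stayed lower (-0.83 ± 0.19, adjusted p 0.00538), and the sums of grem1a (-0.73, adjusted p 0.119) and fmn1 (0.66, adjusted p 0.108) were not called. The sources used here do not say how the counting assigned reads that fit both copies, and its part in these differences was not tested. Whether the groups carried the same sequence at these loci was not tested either.

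Opposite calls in rows of the same symbol were also counted over the table. Of 183 symbols with exactly 2 tested rows, 8 (4.37%) had 1 row higher and the other lower, and scg5 and rrm2 of this block were among these 8. In 21 symbols both rows changed in the same direction, in 58 only 1 row was called and in 96 none was.

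Called neighbours within 100 kb were counted around the other actins too. Beside 5 of 8 lower for actc1a and 2 of 6 higher for si:ch73-187m15.4, acta2 had 5 tested neighbours, of which 4 were lower (lipf -0.72, ankrd22 -0.71, stambpl1 -0.58 and ifit11 -1.04) and none higher. Of 8 tested neighbours of actb1, 4 were higher and none lower. Of 9 tested neighbours of acta1a, 2 were higher and 2 lower, and of 8 of acta1b, 2 were lower and none higher. actb2 had 1 higher of 3 and actc1b 1 higher of 5, with none lower in either. zgc:86709 had 2 tested neighbours, neither called. Over all tested genes, 16.5% were higher and 16.7% lower. Genes that overlap an actin had few reads of their own: AL928650.1 inside actb1 had 0 counts in all samples together, AL929031.1 inside actb2 had 4 and si:dkey-162b3.5, which overlaps acta1b on the other strand, had 27.

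Across the 6 samples, the gene with the pattern most like that of si:ch73-187m15.4 was si:ch1073-190k2.1 on chromosome 15. Likeness was measured as the Euclidean distance of mean-centred log2 CPM among 15821 genes with a mean of at least 2 FPKM in the higher group, and it was 1.07 for this gene, whose mean was 0.03 FPKM in wild type and 20.3 in mutants. The embryonic globin gene hbbe3 followed at 1.49 (2.93 against 216 FPKM). si:ch1073-340i21.3, also on chromosome 15, stood at 1.70 (0.107 against 7.12 FPKM). si:ch211-160d14.9, at 2.87, lies within 100 kb of actb1 on chromosome 1, and serpinh1b, which codes for a collagen chaperone, stood at 3.28 (3.92 against 63.0 FPKM). The log2 change of si:ch1073-190k2.1 was 8.86, against 6.70 for si:ch73-187m15.4. A prior count of 2 in the log2 CPM raises such near-zero wild type values. With only 2 groups, the distance largely reflects the size of the group difference, on which the actin row was selected.

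The genes that work with the actins were followed in 11 lists of 294 symbols, which gave 269 tested genes, and 10 of the lists are described singly. Of these 19 were higher and 70 lower, against 16.5% and 16.7% of all tested genes, and the median log2 change over the lists was -0.12. With library totals 35 list genes were higher and 52 lower, against 22.1% and 11.9% of all tested genes.

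In each of the 4 muscle lists more genes were lower than higher, while over all tested genes 16.7% were lower and 16.5% higher. Of 30 fast skeletal sarcomere genes 15 were lower and none higher, with a median of -0.36. The fast troponin I gene tnni2a.1 went from 28.1 ± 4.44 to 10.3 ± 2.93 FPKM (log2 -1.55, edgeR adjusted p 5.82e-05). The fast myosin binding protein C gene mybpc2a stood at -1.45 (adjusted p 0.000197) and the myosin heavy chain gene myhz1.1 on chromosome 22 at -0.96 (adjusted p 0.000122). These 2 rows had only 2.11 and 5.39 FPKM in wild type. Far more abundant rows changed less. myhz1.1 on chromosome 5 (1367 FPKM in wild type, -0.36, adjusted p 0.0642) and tnni2a.4 (3330 FPKM, -0.32, adjusted p 0.0738) were not called, while myl1 (1321 FPKM, -0.68, adjusted p 0.000467) was lower. Also lower were mylpfa (4237 FPKM in wild type, -0.42, adjusted p 0.0215) and tnnc2 (2228 FPKM, -0.40, adjusted p 0.0265). So were mylpfb (1530 FPKM, -0.56, adjusted p 0.00394) and tnnt3b (1027 FPKM, -0.60, adjusted p 0.00316). ckmb (3935 FPKM, -0.30), mylz3 (3731 FPKM, -0.35), ckma (3167.5 FPKM, -0.19) and tpma (2412 FPKM, -0.36) were not called. The summed level of the fast list was 30114 to 33776 FPKM in wild type and 25242 to 28147 in mutants.

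Of 17 tested genes in the slow skeletal list 6 were lower and 1 higher, against 16.7% and 16.5% of all tested genes. The list median was -0.26. Which fibre type made the reads of these genes was not tested. The slow troponin I gene tnni1d (-1.11, edgeR adjusted p 0.000461), the myosin binding protein H gene mybpha (-0.93, adjusted p 4.46e-05) and the myosin heavy chain gene myh7bb (-0.85, adjusted p 9.62e-05) changed most. Among more abundant rows, smyhc1 (114 FPKM in wild type, 0.06, adjusted p 0.686), tnnc1b (245 FPKM, -0.18, adjusted p 0.275) and myl13 (501 FPKM, -0.17, adjusted p 0.263) were not called. mybphb (443 FPKM, -0.38, adjusted p 0.0176) was lower. prdm1a was the gene called higher (0.46, adjusted p 0.0149), and that call was lost without mutant b or without mutant c. The list summed to 1705 to 1922 FPKM in wild type and 1554 to 1768 in mutants, which overlapped.

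In the cardiac list 9 of 22 tested genes were lower and 1 higher, against 16.7% and 16.5% of all tested genes. The list median was -0.23, and no marker of the list was at 0 in all samples. The ventricular myosin heavy chain gene vmhc went from 29.0 ± 1.55 to 18.7 ± 3.10 FPKM (log2 -0.74, edgeR adjusted p 0.000323). The myosin light chain gene myl4 (-0.70, adjusted p 0.000469) and the cardiac troponin C gene tnnc1a (-0.75, adjusted p 0.00622) were also lower. myl7, the light chain gene commonly used to mark the heart, was not called at -0.21 (adjusted p 0.258), with 17.9 to 23.6 FPKM in wild type and 17.4 to 21.9 in mutants. The list's sum was 285 to 291 FPKM in wild type and 257 to 287 in mutants. The gene called higher was hand2, a transcription factor of the heart field that other tissues express too. Which cells made the reads of the ACTC1 rows was not tested.

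In the list of smooth muscle and mural cells, 12 of 20 tested genes were lower and 1 higher. Over all tested genes 16.7% were lower and 16.5% higher, and the list median was -0.40. The calponin gene cnn1b went from 4.81 ± 1.17 to 2.58 ± 0.15 FPKM (edgeR adjusted p 0.00331). A tropomyosin row with the symbol TPM1 stood at -1.17 (adjusted p 8.92e-06) and the mural cell regulator gene rgs5a at -1.18 (adjusted p 1.71e-05). TPM1 and rgs5a each share their span with other genes. The 1 gene called higher was notch3, which went from 17.1 ± 4.38 to 34.8 ± 1.54 FPKM (log2 0.93, edgeR adjusted p 0.000357). The list summed to 470 to 503 FPKM in wild type and 398 to 411 in mutants, without overlap. The most abundant genes in this sum were desma (127 FPKM in wild type), tpm2 (76.3) and TPM1 (69.6). Which cells made their reads was not tested. With library totals 9 genes of this list were lower and 2 higher, against 11.9% and 22.1% of all tested genes.

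SRF, with its MRTF partners, is the transcription factor that drives many actin and muscle genes in response to the level of free actin monomer. Of 31 tested genes in the list of these factors and their immediate targets, 12 were lower and none higher. Over all tested genes 16.7% were lower and 16.5% higher, and the list median was -0.32. The immediate early genes fosab (-1.96, edgeR adjusted p 2.92e-05), ier2 (-1.43, adjusted p 4.41e-06) and egr1 (-1.41, adjusted p 8.34e-06) were lowest. Each is also induced by other signals, and fosab overlaps another row of its own symbol. Of the cytoskeletal genes in the list, vcla (-0.32, adjusted p 0.0242), cnn2 (-0.39, adjusted p 0.00793) and tpm4b (-0.53, adjusted p 0.00246) were lower. vclb (-0.01), tln1 (0.16), zyx (0.08), cnn3a (0.01) and cnn3b (0.10) were not called. Of the factor genes, the MRTF gene mkl2b was among those lower (-0.57, adjusted p 0.00892), which is named here after its value was seen. Its FPKM ranges overlapped between the groups. The other MRTF genes lay in the other direction and were not called: mkl1a (0.66, adjusted p 0.0655), mkl1b (0.21, adjusted p 0.0846) and mkl2a (0.19, adjusted p 0.445). The SRF genes were not called: srfa went from 4.26 ± 0.84 to 5.07 ± 0.78 FPKM (adjusted p 0.504) and srfb from 17.4 ± 1.86 to 16.2 ± 0.32 (adjusted p 0.219).

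Calls among the genes that build and turn over actin filaments lay in both directions, and most of these genes were not called. Over all tested genes 33.2% were called, so most were not called there either. Of 42 tested nucleation genes, 4 were higher, 4 lower and 34 not called. The formin genes fmn2b (0.88, edgeR adjusted p 0.000119) and fmnl2b (0.40, adjusted p 0.0113, and 0.0663 without mutant a) were higher. Lower were the formin genes daam1a (-0.35, adjusted p 0.0161) and fhod3b (-0.415, adjusted p 0.0173) and the nucleator gene cobl (-0.59, adjusted p 0.000447). The FPKM ranges of daam1a and fhod3b overlapped between the groups, and the other tested formin genes were not called. Of 32 genes for monomer binding, severing and capping, 4 were higher, 3 lower and 25 not called. The thymosin gene tmsb (0.68, adjusted p 0.00229), whose product holds actin monomers and whose span overlaps ankhd1, and the coronin gene coro1cb (0.68, adjusted p 7.62e-05) were higher. tmsb had 42.9 FPKM in wild type, against 1345 for tmsb4x, which was not called (0.09, adjusted p 0.607). The thymosin rows TMSB15A (-0.20, adjusted p 0.159) and si:ch211-11c15.3 (0.18, adjusted p 0.325) were not called either. vil1, the villin gene of brush borders, went from 19.9 ± 3.90 to 4.45 ± 0.85 FPKM (log2 -2.27, adjusted p 1.6e-06).

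Of 20 tested crosslinking genes 5 were higher, 5 lower and 10 not called, against 16.5% higher and 16.7% lower over all tested genes. The non-muscle alpha actinin gene actn1 was higher (0.64, edgeR adjusted p 0.00032), while the ezrin gene ezra (-0.87, adjusted p 8.27e-05) and the fascin gene fscn2b (-0.62, adjusted p 0.0045) were lower. The fascin gene fscn1a, at 61.3 FPKM in wild type against 4.73 for fscn2b, was higher (0.50, adjusted p 0.000789). Of the other fascin genes, fscn2a was lower (1.13 FPKM, -1.26, adjusted p 0.0179) and fscn1b was not called (0.28, adjusted p 0.317). ezra spans 8 other genes. Of 18 folding genes, which include the chaperonin and prefoldin that fold new actin, 2 were higher and 1 lower. These were pfdn2 of prefoldin (0.54, adjusted p 0.00129), CABZ01073085.1, which the gene name table lists as the chaperonin gene cct2 (0.50, adjusted p 0.0197), and smyd1a (-0.72, adjusted p 0.000287), a methyltransferase gene of muscle that overlaps fabp1a. smyd1b was not called (0.10, adjusted p 0.43), and no chaperonin or prefoldin gene was called lower. CABZ01073085.1 overlaps pacsin2, and its adjusted p was 0.0559, 0.0635 and 0.1 without wild type b, wild type c and mutant c.

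None of the 6 tested genes of other actin-related proteins was called by edgeR with TMM scaling, against 33.2% of all tested genes. With library totals 3 were higher, against 22.1% of all tested genes.

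**Figure D5:**
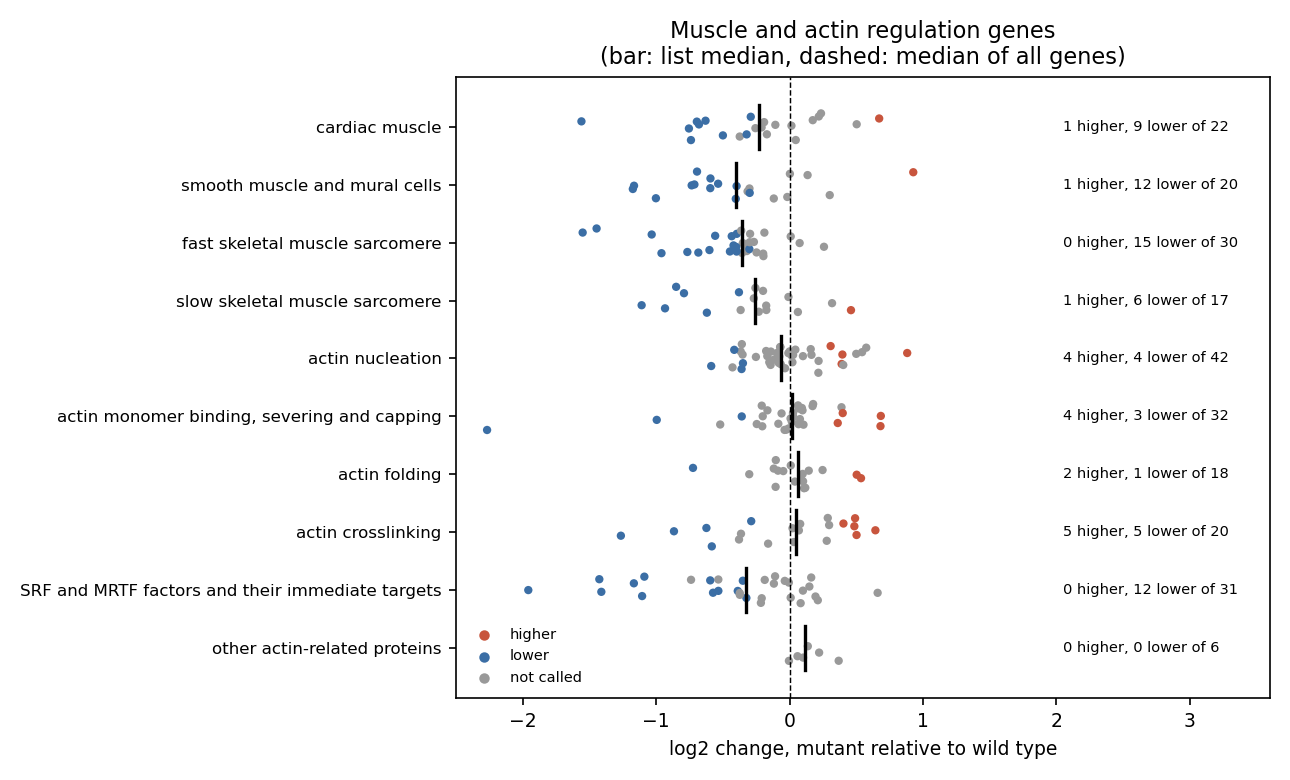
Log2 change of each tested gene of 10 of the 11 lists, with red for called higher, blue for called lower, grey for not called, a bar at the list median and a dashed line at the median of all genes (0.006). The medians of the muscle lists and of the SRF list lie between -0.40 and -0.23, and those of the nucleation, monomer, folding and crosslinking lists between -0.07 and 0.06.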

How the data were processed

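RNA of whole embryos was extracted with TRIzol and made into libraries with the NEBNext Ultra RNA kit, per the labels' protocols. The authors deposited 1 table with read counts and FPKM per gene and sample. The deposited counts are whole numbers with no normalization. The deposited FPKM values equal the count per exonic size and per total count of the sample, as recomputed (ratio 1). The submitters' processing notes name STAR 2.7.10a, Salmon 1.9.0, fastp 0.23.2 and bcl2fastq 2.20.0.422. Their roles, the counter, its treatment of reads that fit several genes, the use of strand, the genome build and the annotation are not given in these notes or labels. The column names hold "ctrl" and "rhpn2-1" with the letters a to c, which were matched to the labels by group and letter, and the 1 is not explained.

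The members and lists were chosen with earlier results of these data known. The whole table was fitted in R 4.3.3 with edgeR 4.0.16 (filterByExpr with a minimum count of 10, TMM, quasi-likelihood test, Benjamini-Hochberg adjustment, threshold 0.05) over 3 against 3 samples. The fit was also run on simulated counts in which few genes changed, equally in both directions. That run does not test the choice of scaling. SE is the log2 change divided by the square root of F. An exact permutation test of 3 against 3 samples cannot go below 0.1 and was not used. Named list genes are the 3 called genes of each list with the largest log2 change, no overlap and at least 2 FPKM in the higher group, with myl7, vmhc, srfa and srfb added. The block copies on chromosome 20, the neighbours of the other actins and the overlapping genes named were chosen after their values were seen. So were the further list genes named. Of 294 list symbols 268 were found, on 277 rows. The totals cover 11 lists, and 1 of them is not reported here by itself.

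Alternatives were DESeq2 1.42.0, median-of-ratios scaling, library totals, other filters, limma 3.58.1 on log2(FPKM + 1) and log2(FPKM + 0.1), a replicate block and leaving out each sample. Labels do not say that samples came from separate clutches, so the p-values reflect only how these samples varied, in part perhaps for technical reasons. Libraries of 1 group differed by 4.22 to 14.5 in chi-square per degree of freedom, so none was counted as a duplicate. Protein and promoter sequences were not analysed here.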

Additional observations from a re-analysis of the deposited data

How the results depend on the processing

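No called direction reversed. The uncalled change of acta1b ran from -0.05 to 0.12 and so took both signs, while si:ch73-187m15.4 (log2 change 5.41 to 6.92), zgc:86709 (0.96 to 1.19) and acta2 (-1.09 to -0.82) were called in all 14 alternatives. With library totals and with limma on log2(FPKM + 1) and log2(FPKM + 0.1), 5 actins were called, acta1a and actb1 in addition. Counts of single lists also moved by over 1.5 times. With library totals, higher genes came to 2 (cardiac, smooth muscle and SRF lists) and 3 (other actin-related), and lower genes to 1 (nucleation) and 3 (crosslinking). In both limma fits, higher genes came to 2 (cardiac, smooth muscle, other actin-related), 5 (folding) and 1 (SRF), and lower genes to 5 (cardiac), 1 (nucleation, monomer) and 2 (crosslinking). All list genes higher then numbered 35 with library totals and 33 in both limma fits, and list genes lower 46 in both limma fits. The higher share of list calls was 21.3% with TMM and 40.2% with library totals, and that of all calls 49.7% and 65.0%. The summed log2 ratios became -0.18 (muscle-type), 0.15 (cytoplasmic) and 1.89 (both ACTC1 rows) with TMM-scaled CPM, and -0.13 (all 9), -0.19 and 0.15 with TMM-scaled FPKM. Ranked by CPM, which ignores length, 5 of 9 rows kept their wild type rank. On log2(FPKM + 1), 3 of the 5 genes nearest in pattern were shared.

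Leaving out 1 sample gave 3 to 4 actins called, and 65 to 104 list genes, 13 to 26 higher and 52 to 78 lower. The sums then ranged from -0.06 to 0.03 (all, in both signs), -0.13 to -0.02 (muscle-type), 0.21 to 0.30 (cytoplasmic), 0.02 to 0.26 (actc1a pair) and 1.97 to 2.11 (ACTC1 rows), with 7 to 9 rows at the same rank in mutants and 9 in wild type. Single lists then moved by over 1.5 times in these counts. Higher genes came to 1 or 4 (folding, from 2), 0 (slow, from 1), 1 or 2 (nucleation, from 4), 2 (monomer, from 4; cardiac and smooth muscle, from 1) and 1 (other actin-related, from 0). Lower genes came to 1 or 2 (nucleation, from 4), 1 (monomer, from 3), 2 or 3 (crosslinking, from 5) and 2 (folding, from 1). Without the filter on low counts, 2 smooth muscle genes were higher. Of the list genes named by rule and described here, CABZ01073085.1 and fmnl2b lost their calls without at least 1 sample.

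Samples with the same letter did not deviate together (correlations -0.12, -0.05 and -0.16), which gave no sign that the letters pair them. With 3 samples per group, this does not settle whether they were collected as pairs. With the replicate block 3 actins were called, and 5356 genes in all against 6654. Lists without genes under 2 FPKM in both groups, an alternative chosen after seeing the data, gave 84 calls against 89. Low wild type counts of the chromosome 19 copies limit the precision of their fold changes.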
